A study of Mus musculus with 10 samples.

Results

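The genes described are 48 imprinted genes, grouped by the chromosomal cluster in which each is found, a set named for known imprinting in mouse and not by a threshold on these arrays. Of these, 42 were measured by a probe set that the platform annotation assigns to a single gene symbol, out of 18193 genes and 45037 probe sets tested. The other 6 members (H19, Slc22a3, Dio3, Rtl1, Peg13 and Zrsr1) had no such probe set, and for H19 the annotation lists 1 probe set that it shares with another symbol. Where a gene had several probe sets, the one with the highest mean log2 intensity over the 10 arrays stood for it.

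The samples were CJ9 mouse embryonic stem cells (ESCs), a 129svj-derived line, profiled on whole-genome Affymetrix expression arrays in 5 groups of 2 biological replicates. The groups carried Wapal shRNA1, Wapal shRNA2, Smc3 shRNA1, Smc3 shRNA2 or Empty Vector, the lentiviral vector with no shRNA. Smc3 is a core subunit of the cohesin ring, and Wapal (gene symbol Wapl) is the factor that releases cohesin from chromatin. All 5 groups were exposed to lentivirus and 10 mcg/mL polybrene for 48 h, then kept in LIF and 4 mcg/mL puromycin, with RNA taken after 48 h of culture, so the controls share the infection and the selection. The cells are a single line under acute infection and selection, and both depletions are set against the same 2 Empty Vector arrays.

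An imprinted gene is transcribed mostly from the copy inherited from one parent. Imprinted genes lie in clusters that answer to an imprinting control region, a stretch of DNA methylated on one parental chromosome, and in several clusters a long non-coding RNA silences its neighbours in cis. CTCF binds some control regions on the unmethylated chromosome, and cohesin gathers at CTCF sites. The arrays measure RNA from both parental chromosomes together, so no value below says which allele it came from.

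Promoter sequences are shown for the 3 members that were lower in both depletions (Zdbf2, Plagl1 and Peg12) and for Meg3, a long non-coding RNA measured by 11 probe sets. Each run is the 250 bases before the annotated start in RefSeq (build GRCm38.p6), and capitals mark TGCCGC or its reverse complement GCGGCA, the hexamer that the imprint-protecting zinc finger protein ZFP57 binds in mouse when it is methylated.
Zdbf2, chr1:63200108-63200357, plus strand: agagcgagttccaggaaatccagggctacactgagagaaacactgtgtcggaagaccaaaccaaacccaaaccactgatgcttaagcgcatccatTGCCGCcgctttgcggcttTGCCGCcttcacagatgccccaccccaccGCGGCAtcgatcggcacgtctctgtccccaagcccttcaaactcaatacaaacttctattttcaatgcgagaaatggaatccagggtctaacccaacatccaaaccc
Plagl1, chr10:13090582-13090831, plus strand: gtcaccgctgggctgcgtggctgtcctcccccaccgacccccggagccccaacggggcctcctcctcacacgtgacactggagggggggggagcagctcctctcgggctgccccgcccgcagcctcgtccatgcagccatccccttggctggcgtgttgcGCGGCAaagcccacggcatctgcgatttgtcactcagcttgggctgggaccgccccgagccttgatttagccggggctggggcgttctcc
Peg12, chr7:62464511-62464760, minus strand: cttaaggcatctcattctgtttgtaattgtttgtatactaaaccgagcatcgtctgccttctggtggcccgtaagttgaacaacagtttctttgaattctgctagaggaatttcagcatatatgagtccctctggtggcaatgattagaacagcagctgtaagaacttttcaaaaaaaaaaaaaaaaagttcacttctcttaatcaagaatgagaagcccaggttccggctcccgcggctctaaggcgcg
Meg3, chr12:109540746-109540995, plus strand: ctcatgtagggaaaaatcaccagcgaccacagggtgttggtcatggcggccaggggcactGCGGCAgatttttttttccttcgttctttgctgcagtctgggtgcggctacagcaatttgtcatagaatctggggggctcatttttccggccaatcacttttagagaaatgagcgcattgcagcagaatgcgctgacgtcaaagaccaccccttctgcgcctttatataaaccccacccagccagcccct
The Zdbf2 window held 3 copies of the hexamer, the Plagl1 and Meg3 windows held 1 each, and the Peg12 window held 0. These windows held 13, 19, 8 and 10 CpG dinucleotides for Zdbf2, Plagl1, Peg12 and Meg3, against a median of 6 over 32851 mouse promoters. The median over the promoters of the members was 10. A second annotated Zdbf2 start and a second Meg3 start had 0 copies in their windows. Across all promoters of this length, 8.68% held the hexamer on either strand. Of 58 promoters of the 39 members with an entry, 8 did (13.8%). The Mest windows that held it overlap almost fully, so the same copies entered more than once. Counted by gene, 7 of the 39 members held it, beside 9.84% of genes. Among these were Mcts2, Mest, Copg2 and Zim1, which passed in neither depletion. No window of Igf2r, Phlda2, Rian, Ppp1r9a or Gnas, which rose with Smc3 depletion, held it. This is a description of letters and not of binding.

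The depletions were visible in the targeted genes. Wapl had intensities of 929 and 1005 under Wapal shRNA1 and 235 and 217 under Wapal shRNA2, against 2500 and 2648 under Empty Vector, and Smc3 had 187 and 176 under Smc3 shRNA1 and 223 and 189 under Smc3 shRNA2, against 1536 and 1555 under Empty Vector. Wapl was thus left at a higher level by Wapal shRNA1 than by Wapal shRNA2. All 14 pluripotency markers had a log2 intensity of at least 6 on some array. Markers of other cell types stayed under 6 on every array for 8 of 12 fibroblast and feeder, 8 of 12 endoderm, 6 of 9 mesoderm, 5 of 11 trophectoderm and 4 of 9 neural genes, so the rest of each list, and most of the last pair, reached 6 on some array. Arrays also divided along a line that crosses the groups. Wapal shRNA1, Smc3 shRNA2 and Empty Vector replicate 1 stood together, opposite Wapal shRNA2, Smc3 shRNA1 and Empty Vector replicate 2. Over all probe sets, taken as a description since genes do not vary independently, the gap between Empty Vector replicates (1 minus 2) correlated with that between the Wapal shRNAs (1 minus 2) at r = 0.403, and with the gap between Smc3 shRNA2 and Smc3 shRNA1 at r = 0.307. The source of the split was not tested.

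**Figure D1:**
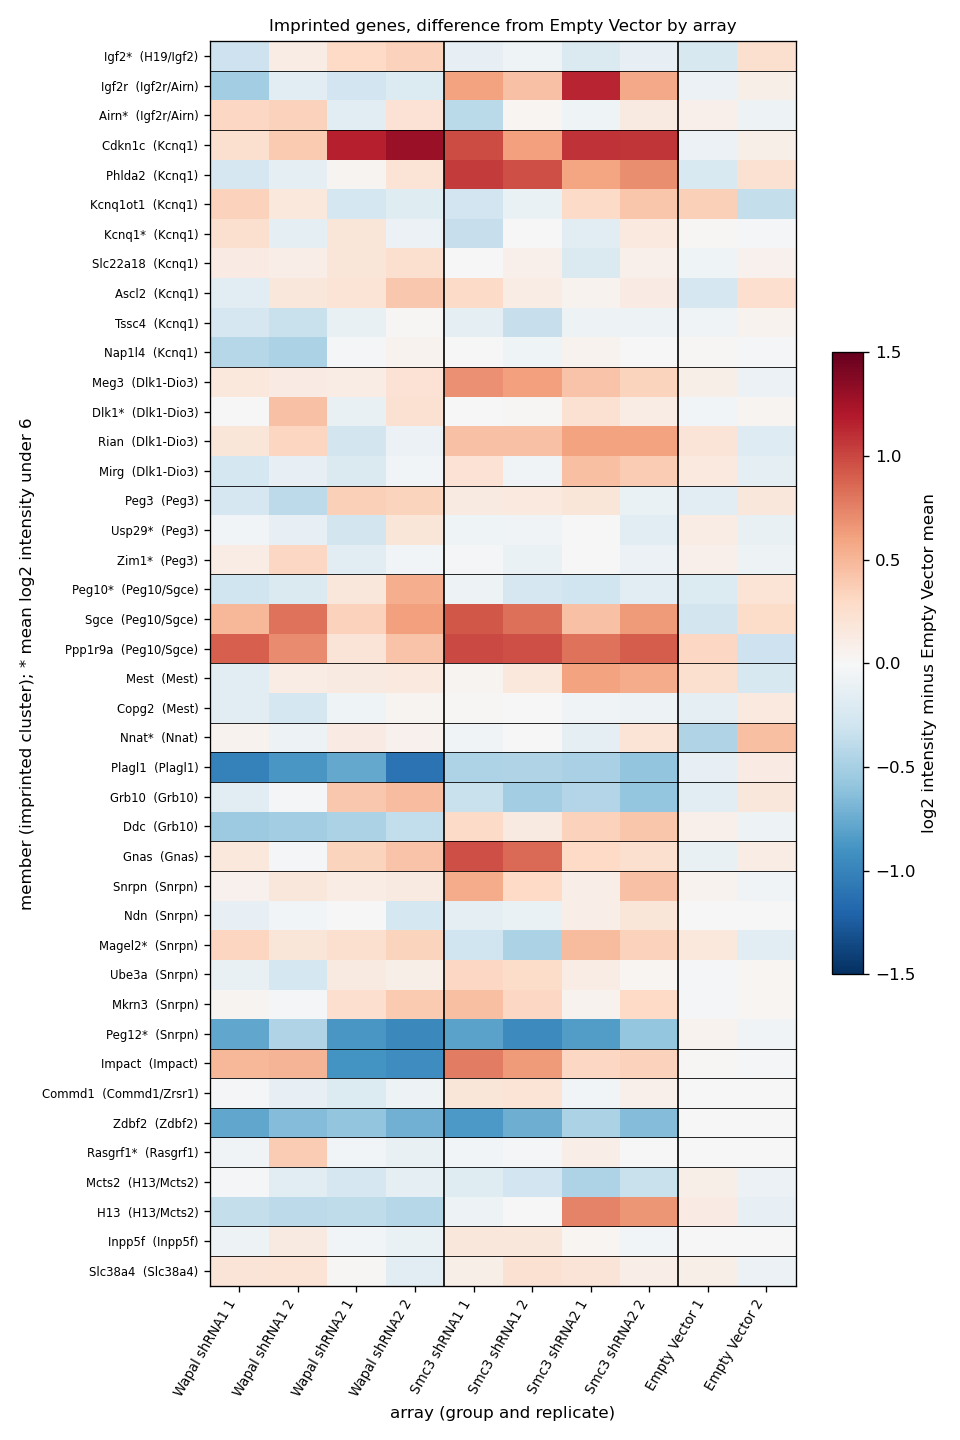
Log2 intensity of each of the 42 measured imprinted genes (rows, by cluster) on each of the 10 arrays (columns), as the difference from the mean of the 2 Empty Vector arrays. Zdbf2 and Peg12 were lower (blue) on all 8 shRNA arrays, Phlda2 was clearly higher (red) on the 4 Smc3 shRNA arrays, and an asterisk marks the 11 genes with a mean log2 intensity under 6.

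Most imprinted genes did not pass the test in either depletion, and 4 passed in both. With Wapal depletion, 1 of 42 members rose (Cdkn1c) and 4 fell (Plagl1, Ddc, Peg12 and Zdbf2), by limma with an adjusted p (Benjamini-Hochberg) under 0.05. Over all probe sets 5.91% passed in that comparison, and with 1 probe set per gene 7.56% did (2.63% higher and 4.93% lower), beside 11.9% of the members. With Smc3 depletion, 9 members rose (Igf2r, Cdkn1c, Phlda2, Meg3, Rian, Sgce, Ppp1r9a, Gnas and Impact) and 3 fell (Plagl1, Peg12 and Zdbf2). Here 7.62% of all probe sets and 10.0% of genes passed (6.08% higher and 3.94% lower), beside 28.6% of the members. The medians lay near 0. The median log2 fold change of the 42 was 0.04 with Wapal depletion, where that of all genes was 0.01, and 0.09 with Smc3 depletion, where that of all genes was 0.01. In all, 29 of 42 members passed in neither depletion. The share of all genes that passed in both or in neither was not counted. Both comparisons use the same 2 Empty Vector arrays, so a pass in both is not a pair of independent results.

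The dim probe sets bear on these shares. Among the 31 members with a mean log2 intensity of at least 6, 4 passed with Wapal depletion (12.9%) and 11 with Smc3 depletion (35.5%), while over the 9689 genes of that brightness 11.0% and 14.2% passed in those comparisons. The Wapal share thus lay close to that of all genes as bright. Counted by separation alone, 13 of 42 members lay with all 4 Wapal shRNA arrays above or all 4 below both Empty Vector arrays, where 33.1% of all genes did. For Smc3, 19 of 42 members were separate in this way, where 26.9% of genes were.

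Zdbf2, a zinc finger gene on chromosome 1 that is expressed from the paternal copy, was lower with every shRNA. Its log2 intensities were 8.24 and 8.37 under Wapal shRNA1, 8.43 and 8.29 under Wapal shRNA2, 8.16 and 8.29 under Smc3 shRNA1, and 8.55 and 8.37 under Smc3 shRNA2, against 9.01 and 9.03 under Empty Vector. No shRNA array reached an Empty Vector array. The log2 fold change was -0.69 ± 0.10 (SE) with Wapal depletion (limma adjusted p = 0.0104) and -0.68 ± 0.10 with Smc3 depletion (adjusted p = 0.0054), a 1.61-fold and a 1.6-fold decrease. Between the depletions Zdbf2 differed by -0.01 ± 0.08 (adjusted p = 0.959). Set against the Empty Vector array of the same side of the split, the 4 shRNAs gave -0.71 and -0.67 for Wapal shRNA1 and shRNA2 and -0.81 and -0.55 for Smc3 shRNA1 and shRNA2. The decrease passed in both depletions whichever single array was left out. RNA of whole cultures is measured here, so fewer cells that express a gene and less RNA per cell cannot be told apart, for Zdbf2 or for any gene below.

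Plagl1, a paternally expressed zinc finger transcription factor on chromosome 10, was also lower with every shRNA, and more so with Wapal. It read 7.69 and 7.83 under Wapal shRNA1, 7.94 and 7.60 under Wapal shRNA2, 8.25 and 8.26 under Smc3 shRNA1, and 8.22 and 8.11 under Smc3 shRNA2, against 8.59 and 8.83 under Empty Vector. The 3 sets of arrays did not overlap. The log2 fold change was -0.94 ± 0.13 with Wapal depletion (limma adjusted p = 0.00934) and -0.50 ± 0.10 with Smc3 depletion (adjusted p = 0.0223), and the depletions differed by -0.44 ± 0.09 (adjusted p = 0.00885). With Smc3 the call was kept only when Empty Vector replicate 1 was the array left out, and the adjusted p otherwise rose to as much as 0.0865 while the log2 fold change stayed between -0.62 and -0.38. The probe set is of the type that can cross-hybridise with other transcripts, and the other 2 Plagl1 probe sets, both dim, gave -0.01 and -0.12 with Wapal depletion and -0.02 and -0.26 with Smc3 depletion, none past the threshold. Between the depletions these 2 gave 0.01 and 0.14, opposite in sign to the value above, and on the mean of all 3 probe sets neither the Smc3 call (adjusted p = 0.0763) nor the difference between depletions (adjusted p = 0.34) passed.

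Peg12, a paternally expressed Frat-family gene of the Snrpn cluster on chromosome 7, was dim on every array. Its log2 intensities were 3.60 and 3.92 under Wapal shRNA1, 3.51 and 3.41 under Wapal shRNA2, 3.58 and 3.42 under Smc3 shRNA1, and 3.54 and 3.80 under Smc3 shRNA2, against 4.43 and 4.33 under Empty Vector. The groups were separate, but all values lay under a log2 intensity of 6, as did 59.6% to 60.1% of the probe sets on each array. The log2 fold change was -0.77 ± 0.11 with Wapal depletion (limma adjusted p = 0.0121) and -0.79 ± 0.11 with Smc3 depletion (adjusted p = 0.00439). The Wapal call was lost without Empty Vector replicate 1 or without Wapal shRNA2 replicate 2, with an adjusted p of at most 0.0632.

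Cdkn1c, the maternally expressed cyclin-dependent kinase inhibitor p57 of the Kcnq1 cluster on chromosome 7, was the member that rose in both depletions. It read 7.14 and 7.29 under Wapal shRNA1, 8.07 and 8.20 under Wapal shRNA2, 7.87 and 7.51 under Smc3 shRNA1, and 7.99 and 7.97 under Smc3 shRNA2, against 6.81 and 6.99 under Empty Vector. All 8 shRNA arrays were above both Empty Vector arrays. The log2 fold change was 0.78 ± 0.10 with Wapal depletion (limma adjusted p = 0.00895) and 0.94 ± 0.12 with Smc3 depletion (adjusted p = 0.00348), or 1.71-fold and 1.91-fold, and the difference between depletions was -0.16 ± 0.09 (adjusted p = 0.276). The shRNA cannot be told apart from the side of the array split, and the Wapal value was uneven, at 0.32 with shRNA1 and 1.24 with shRNA2. Without Empty Vector replicate 1 its adjusted p with Wapal was 0.0505.

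**Figure D2:**
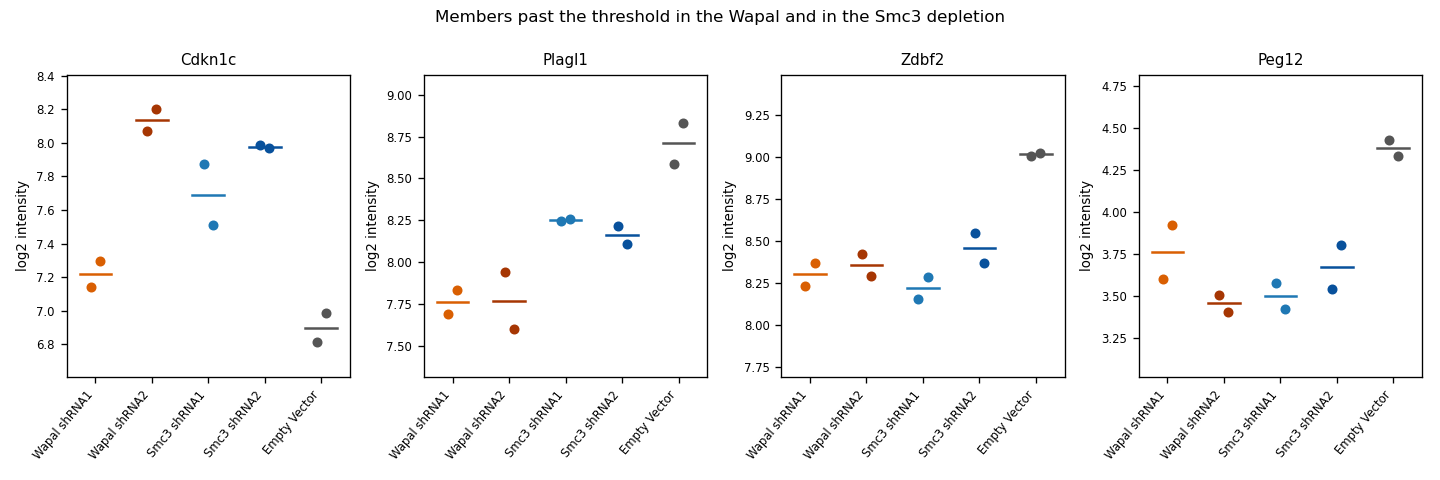
Log2 intensity (y axis) of the 4 imprinted genes that passed the test in both depletions, by group (x axis), with dots for single arrays and lines for group means. Cdkn1c was higher on all 8 shRNA arrays than on the Empty Vector arrays, and Plagl1, Zdbf2 and Peg12 were lower.

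Within the Kcnq1 cluster the second gene that passed against Empty Vector was Phlda2, a maternally expressed pleckstrin homology protein that limits placental growth. Phlda2 had log2 intensities of 9.61 and 9.71 under Wapal shRNA1, 9.90 and 10.06 under Wapal shRNA2, 10.91 and 10.82 under Smc3 shRNA1, and 10.44 and 10.55 under Smc3 shRNA2, against 9.63 and 10.09 under Empty Vector. The Smc3 shRNA arrays were above all others, and the Wapal shRNA arrays overlapped the Empty Vector arrays. Phlda2 rose by 0.83 ± 0.13 with Smc3 depletion (limma adjusted p = 0.0087), gave -0.04 ± 0.14 with Wapal depletion (adjusted p = 0.898), and was lower with Wapal depletion than with Smc3 depletion by 0.86 ± 0.10 (adjusted p = 0.000354). Both calls held whichever array was left out. The other 6 members of the cluster passed in neither depletion, among them the channel gene Kcnq1, which was dim, and Ascl2, a trophoblast factor. Nap1l4, a nucleosome assembly protein, was lower with Wapal than with Smc3 depletion by 0.21 ± 0.07 (adjusted p = 0.0478), a call lost with any 1 of the 8 shRNA arrays left out.

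Kcnq1ot1, the paternally expressed antisense RNA that silences this cluster in cis, followed the split of the arrays and not the depletions. It read 9.30 and 9.11 under Wapal shRNA1, 8.69 and 8.78 under Wapal shRNA2, 8.66 and 8.85 under Smc3 shRNA1, 9.24 and 9.37 under Smc3 shRNA2, and 9.31 and 8.59 under Empty Vector. The 5 arrays of the first side lay between 9.11 and 9.37, and the 5 of the second lay between 8.59 and 8.85. Averaged over shRNAs the log2 fold changes were 0.02 ± 0.18 with Wapal depletion (limma adjusted p = 0.972) and 0.08 ± 0.18 with Smc3 depletion (adjusted p = 0.864). Within a side they ran between -0.11 and 0.16. Its other 3 probe sets with a mean log2 intensity of at least 6 had Empty Vector replicate 2 below replicate 1 by 0.50 to 0.79. The sides were taken from earlier results of these arrays, so this order is a description.

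**Figure D3:**
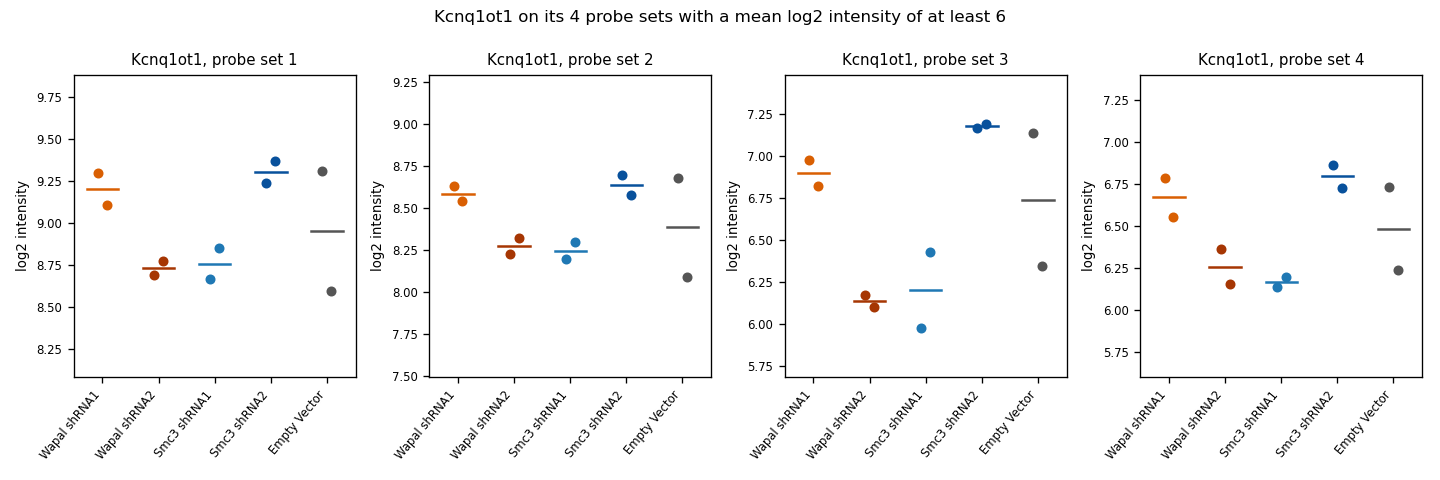
Log2 intensity (y axis) of Kcnq1ot1 by group (x axis) on the 4 of its 6 probe sets with a mean log2 intensity of at least 6, with dots for single arrays and lines for group means. In each panel Wapal shRNA1, Smc3 shRNA2 and 1 Empty Vector array lie above Wapal shRNA2, Smc3 shRNA1 and the other Empty Vector array.

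In the Igf2r/Airn cluster on chromosome 17, Igf2r rose with Smc3 depletion. Igf2r encodes the receptor that clears Igf2 and carries lysosomal enzymes, and it is the maternally expressed gene silenced by the antisense RNA Airn. Its log2 intensities were 8.09 and 8.46 under Wapal shRNA1, 8.33 and 8.40 under Wapal shRNA2, 9.22 and 9.05 under Smc3 shRNA1, and 9.76 and 9.18 under Smc3 shRNA2, against 8.52 and 8.71 under Empty Vector. The Smc3 shRNA arrays were above both Empty Vector arrays and the Wapal shRNA arrays were below both. The log2 fold change was 0.69 ± 0.16 with Smc3 depletion (limma adjusted p = 0.0352) and -0.29 ± 0.12 with Wapal depletion (adjusted p = 0.204), and Wapal depletion was lower than Smc3 depletion by 0.98 ± 0.13 (adjusted p = 0.000641), a 1.98-fold difference. A second Igf2r probe set gave 0.71 with Smc3 depletion, -0.24 with Wapal depletion and -0.95 between them. The Smc3 call was lost without Empty Vector replicate 1, Smc3 shRNA1 replicate 1, Smc3 shRNA1 replicate 2 or Smc3 shRNA2 replicate 1 (log2 fold change 0.55 to 0.83, adjusted p up to 0.158), with an offset of 16 before the log (adjusted p = 0.0532) and with the side of the split as a term (adjusted p = 0.0562), whereas the difference between the depletions held in each of the 10 fits that left out 1 array. Airn was dim and gave 0.18 ± 0.12 with Wapal depletion and -0.08 ± 0.14 with Smc3 depletion, neither past the threshold.

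In the Dlk1-Dio3 cluster on chromosome 12 the maternally expressed non-coding RNAs Meg3 and Rian rose with Smc3 depletion. Meg3 had log2 intensities of 11.48 and 11.45 under Wapal shRNA1, 11.43 and 11.54 under Wapal shRNA2, 12.01 and 11.93 under Smc3 shRNA1, and 11.74 and 11.66 under Smc3 shRNA2, against 11.41 and 11.24 under Empty Vector. Every Smc3 shRNA array was above every other array. As for Plagl1, this probe set is of the type that can cross-hybridise. Meg3 rose by 0.52 ± 0.10 with Smc3 depletion (limma adjusted p = 0.0154), gave 0.15 ± 0.10 with Wapal depletion (adjusted p = 0.387), and was lower with Wapal than with Smc3 depletion by 0.36 ± 0.07 (adjusted p = 0.00656). On its 11 probe sets, which share the transcript and are not replicates, all 11 values were positive with Smc3 depletion (0.02 to 0.63) and 5 passed, while with Wapal depletion 5 were positive, 6 negative and 0 passed. The Smc3 call stayed only when Empty Vector replicate 1 or Smc3 shRNA1 replicate 2 was left out, with an adjusted p of at most 0.0601 otherwise.

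**Figure D4:**
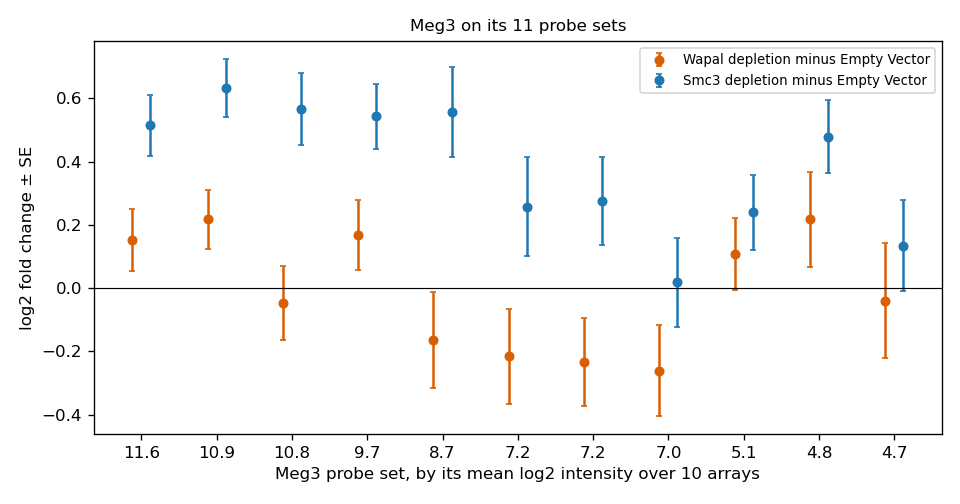
Log2 fold change (y axis, limma estimate with SE bars) of the 11 Meg3 probe sets (x axis, from high to low mean log2 intensity), with Wapal depletion in orange and Smc3 depletion in blue, each against Empty Vector. The Smc3 values were all above 0, up to 0.63, and the Wapal values lay between -0.26 and 0.22.

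Rian, a host of small nucleolar RNAs, read 7.95 and 8.10 under Wapal shRNA1, 7.50 and 7.68 under Wapal shRNA2, 8.21 and 8.21 under Smc3 shRNA1, and 8.38 and 8.38 under Smc3 shRNA2, against 7.97 and 7.58 under Empty Vector. The Smc3 shRNA arrays were again above the rest. It rose by 0.52 ± 0.12 with Smc3 depletion (limma adjusted p = 0.034), a call kept only when Empty Vector replicate 1 was the array left out (adjusted p up to 0.113) and lost on the mean of its 4 probe sets. Rian was lower with Wapal than with Smc3 depletion by 0.49 ± 0.09 (adjusted p = 0.00532), and so was Mirg, a host of microRNAs, by 0.41 ± 0.10 (adjusted p = 0.0133). Mirg gave 0.25 ± 0.12 with Smc3 depletion (adjusted p = 0.286), and its difference between depletions was lost without Smc3 shRNA1 replicate 1, Smc3 shRNA2 replicate 1 or Wapal shRNA2 replicate 1 (adjusted p up to 0.0575). Dlk1, the paternally expressed Notch-family ligand of the cluster, was dim and gave 0.14 ± 0.15 with Wapal and 0.09 ± 0.09 with Smc3 depletion.

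Sgce and Ppp1r9a, of the Peg10/Sgce cluster on chromosome 6, rose with Smc3 depletion, and their values with Wapal depletion were positive but did not pass. Sgce, the paternally expressed epsilon-sarcoglycan, had log2 intensities of 6.72 and 7.04 under Wapal shRNA1, 6.57 and 6.84 under Wapal shRNA2, 7.15 and 7.05 under Smc3 shRNA1, and 6.67 and 6.86 under Smc3 shRNA2, against 5.95 and 6.50 under Empty Vector. All 8 shRNA arrays lay above the Empty Vector arrays, which were themselves 0.55 apart. The log2 fold change was 0.71 ± 0.15 with Smc3 depletion (limma adjusted p = 0.0275), lost unless Empty Vector replicate 2 was the one omitted (adjusted p up to 0.114), whereas it was 0.57 ± 0.17 with Wapal depletion (adjusted p = 0.0919).

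Ppp1r9a, or neurabin, an actin-binding regulator of protein phosphatase that is expressed maternally, read 8.41 and 8.22 under Wapal shRNA1, 7.70 and 7.93 under Wapal shRNA2, 8.50 and 8.48 under Smc3 shRNA1, and 8.33 and 8.41 under Smc3 shRNA2, against 7.82 and 7.19 under Empty Vector. The Smc3 shRNA arrays were above both controls, and Wapal shRNA2 overlapped them. It rose by 0.92 ± 0.16 with Smc3 depletion (limma adjusted p = 0.0116) and gave 0.56 ± 0.17 with Wapal depletion (adjusted p = 0.1). All 3 of its probe sets with a mean log2 intensity of at least 6 passed with Smc3 depletion, at 0.65 to 0.92, and 1 of them passed with Wapal depletion, at 0.42 (adjusted p = 0.0477). Without Smc3 shRNA2 replicate 2 the adjusted p with Smc3 depletion was 0.0568. Peg10, the retrotransposon-derived placental gene beside Sgce, was dim and gave 0.05 ± 0.15 with Wapal and -0.20 ± 0.13 with Smc3 depletion.

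Gnas and Impact also rose with Smc3 depletion, and each differed between the shRNAs to one gene. Gnas, the maternally expressed stimulatory G protein alpha subunit on chromosome 2, had log2 intensities of 10.07 and 9.90 under Wapal shRNA1, 10.24 and 10.34 under Wapal shRNA2, 10.88 and 10.76 under Smc3 shRNA1, and 10.21 and 10.15 under Smc3 shRNA2, against 9.80 and 10.02 under Empty Vector. Smc3 shRNA1 stood above all other groups, and Smc3 shRNA2 overlapped the range of the Wapal shRNAs. Gnas rose by 0.59 ± 0.10 with Smc3 depletion (limma adjusted p = 0.0112), at 0.91 with shRNA1 and 0.27 with shRNA2, a difference of 0.64 ± 0.12 between them (adjusted p = 0.0128). Without Empty Vector replicate 1 its adjusted p was 0.0668, its other 4 probe sets were dim and did not pass with Smc3 depletion, and on the mean of all 5 the adjusted p was 0.328. The mean of all 5 also did not pass between the Smc3 shRNAs (adjusted p = 0.465).

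Impact, a paternally expressed regulator of the translation kinase Gcn2 on chromosome 18, read 9.85 and 9.86 under Wapal shRNA1, 8.46 and 8.43 under Wapal shRNA2, 10.13 and 10.00 under Smc3 shRNA1, and 9.67 and 9.70 under Smc3 shRNA2, against 9.37 and 9.34 under Empty Vector. The Wapal shRNAs fell on opposite sides of Empty Vector, at 0.50 with shRNA1 and -0.91 with shRNA2, and differed by -1.41 ± 0.10 (limma adjusted p = 0.0049). Their mean of -0.21 ± 0.09 (adjusted p = 0.206) therefore describes neither shRNA. With Smc3 depletion Impact rose by 0.52 ± 0.09 (adjusted p = 0.0117), a call lost without Smc3 shRNA2 replicate 2 (adjusted p = 0.0519) and on the mean of its 3 probe sets (adjusted p = 0.251). Its difference between the depletions, -0.72 ± 0.07 (adjusted p = 9.48e-05), averages over the same unlike pair of Wapal shRNAs, and did not pass with the side of the split as a term (adjusted p = 0.111).

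Setting the depletions directly against each other, 12 of 42 members passed, 11 lower and 1 higher with Wapal depletion, in a comparison where 17.4% of all probe sets and 22.5% of genes passed (14.8% lower and 7.66% higher). Among the members of at least 6 in mean log2 intensity 38.7% passed, where 32.3% of genes as bright did. Of the 9 members that rose with Smc3 depletion, 6 were lower with Wapal than with Smc3 depletion (Igf2r, Phlda2, Meg3, Rian, Gnas and Impact). The same Smc3 shRNA arrays enter both comparisons, and the share over all genes that rose was not counted, so this is a description. For Cdkn1c, Sgce and Ppp1r9a the difference did not pass on the chosen probe set. Of the 5 Ppp1r9a probe sets, which ran between -0.365 and 0.234, 2 were lower past the threshold. For Gnas the 5 probe sets ran between -0.36 and 0.26 in this comparison, with 1 higher and 1 lower past the threshold, and their mean did not pass (limma adjusted p = 0.86). The remaining 6 that passed were Nap1l4, Mirg, Plagl1, Ddc and H13, which were lower with Wapal, and Grb10, which was higher. The median over all 42 was -0.10, against 0.01 over all genes.

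In the Grb10 cluster on chromosome 11 the pair of measured genes differed in opposite directions between the depletions. Ddc, the aromatic amino acid decarboxylase, read 9.31 and 9.32 under Wapal shRNA1, 9.38 and 9.48 under Wapal shRNA2, 10.14 and 9.98 under Smc3 shRNA1, and 10.20 and 10.26 under Smc3 shRNA2, against 9.92 and 9.77 under Empty Vector. The Wapal shRNA arrays were below both controls and the Smc3 shRNA arrays above both. It fell by 0.48 ± 0.10 with Wapal depletion (limma adjusted p = 0.0303), gave 0.30 ± 0.10 with Smc3 depletion (adjusted p = 0.117), and was lower with Wapal than with Smc3 depletion by 0.77 ± 0.07 (adjusted p = 0.000112). The Wapal call was kept only when Empty Vector replicate 2 was the array left out (log2 fold change -0.55 to -0.40, adjusted p up to 0.129). It was also lost after quantile normalization and on the mean of both Ddc probe sets. The other Ddc probe set was dim and opposite in sign throughout. It gave 0.13 with Wapal depletion, -0.07 with Smc3 depletion and 0.2 between them, none past the threshold.

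Grb10, an adaptor that dampens insulin and growth factor signalling, had log2 intensities of 9.70 and 9.84 under Wapal shRNA1, 10.26 and 10.31 under Wapal shRNA2, 9.52 and 9.33 under Smc3 shRNA1, and 9.41 and 9.27 under Smc3 shRNA2, against 9.68 and 10.03 under Empty Vector. Each Smc3 shRNA array was below each of the other arrays. The difference between Wapal and Smc3 depletion was 0.64 ± 0.09 (limma adjusted p = 0.00111). Against Empty Vector, Grb10 gave -0.47 ± 0.12 with Smc3 depletion (adjusted p = 0.0574) and 0.17 ± 0.12 with Wapal depletion (adjusted p = 0.415), and a second, dim Grb10 probe set fell by 0.64 with Smc3 depletion (adjusted p = 0.00718).

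H13, a signal peptide peptidase on chromosome 2 that hosts the retrogene Mcts2, read 7.61 and 7.58 under Wapal shRNA1, 7.60 and 7.54 under Wapal shRNA2, 7.90 and 7.97 under Smc3 shRNA1, and 8.71 and 8.63 under Smc3 shRNA2, against 8.10 and 7.85 under Empty Vector. The Wapal shRNA arrays were the lowest and Smc3 shRNA2 the highest. H13 was lower with Wapal than with Smc3 depletion by 0.72 ± 0.08 (limma adjusted p = 0.000187). Against Empty Vector it gave -0.39 ± 0.10 with Wapal depletion (adjusted p = 0.0647) and 0.33 ± 0.10 with Smc3 depletion (adjusted p = 0.0978).

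**Figure D5:**
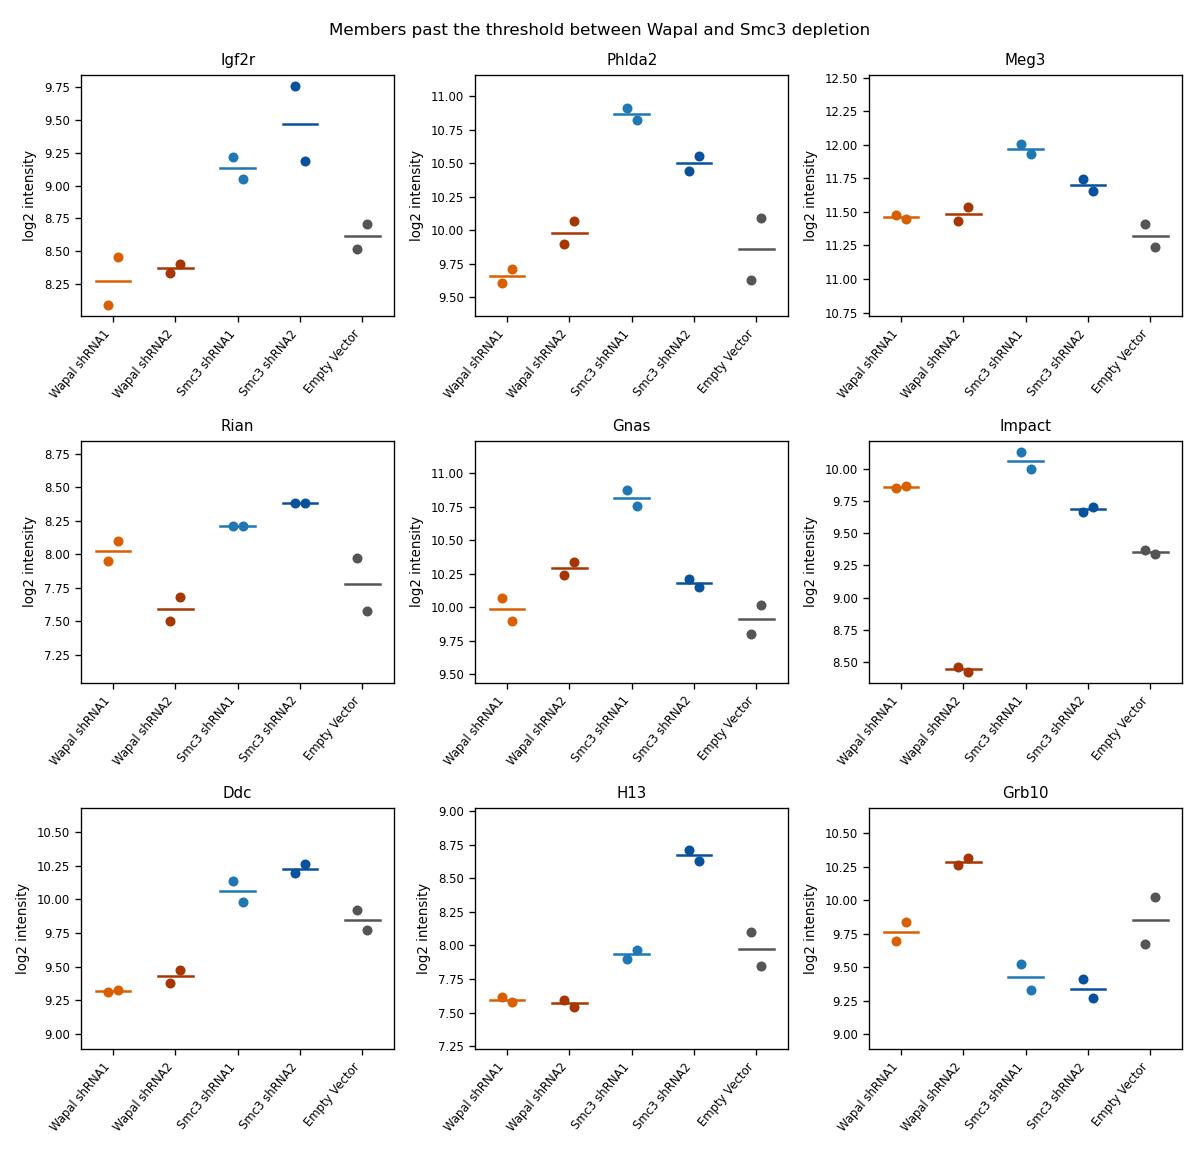
Log2 intensity (y axis) by group (x axis) of 9 of the 12 imprinted genes that differed between Wapal and Smc3 depletion, with dots for single arrays and lines for group means. Igf2r, Phlda2, Meg3, Rian and Ddc show every Wapal shRNA array below every Smc3 shRNA array, Grb10 shows the opposite order, and Impact shows Wapal shRNA2 apart from Wapal shRNA1.

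The shRNAs to one gene were also set against each other on the chosen probe sets. Between Wapal shRNA2 and Wapal shRNA1, 2 of 42 members passed (Cdkn1c and Impact, above), where 1.46% of genes did, and between Smc3 shRNA1 and Smc3 shRNA2, 3 passed (Gnas, Magel2 and H13), where 12.5% of genes did. Magel2, a paternally expressed MAGE-family gene of the Snrpn cluster and dim, read 5.32 and 5.14 under Smc3 shRNA1 and 6.08 and 5.96 under Smc3 shRNA2, against 5.77 and 5.45 under Empty Vector. The Smc3 shRNAs lay on opposite sides of the controls and differed by -0.80 ± 0.14 (limma adjusted p = 0.00969). H13 differed by -0.74 ± 0.12 between the same shRNAs (adjusted p = 0.00778), a call lost on the mean of its 6 probe sets (adjusted p = 0.447). Probe sets other than the chosen one also passed between the Smc3 shRNAs. For Kcnq1ot1 2 of 6 were lower with shRNA1. Higher with shRNA1 were 2 of 11 for Meg3, 1 of 4 for Rian and 2 of 5 for Ppp1r9a. These contrasts run along the split of the arrays, and the shRNA and the side cannot be told apart in them.

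On the chosen probe sets, the clusters around Peg3, Mest, Nnat, Igf2, Rasgrf1, Inpp5f, Slc38a4 and Commd1 held no member that passed in either depletion or between them. A second Slc38a4 probe set was higher with Wapal than with Smc3 depletion by 0.30 and passed, where the chosen one gave -0.09. Peg3, a paternally expressed zinc finger factor, gave 0.01 ± 0.12 with Wapal and 0.09 ± 0.13 with Smc3 depletion. Mest, a paternally expressed hydrolase-fold protein, gave 0.05 ± 0.15 and 0.34 ± 0.13 (limma adjusted p = 0.185 with Smc3 depletion). Igf2, the fetal growth factor, lay near the dim limit and gave 0.11 ± 0.16 and -0.13 ± 0.14, and Nnat, neuronatin, was dim and had Empty Vector arrays 0.90 apart. In the Snrpn cluster, Snrpn, a spliceosomal protein, gave 0.12 ± 0.09 with Wapal and 0.35 ± 0.13 with Smc3 depletion, and the growth suppressor Ndn gave -0.11 ± 0.10 and 0.01 ± 0.09, none past the threshold. These misses do not show equal levels, since the standard errors of the members in the Wapal and Smc3 comparisons ran up to 0.22.

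The parental copy from which each member is usually expressed was set beside the calls. Of the 9 members that rose with Smc3 depletion, 7 are annotated as maternally expressed (Igf2r, Cdkn1c, Phlda2, Meg3, Rian, Ppp1r9a and Gnas) and 2 as paternally expressed (Sgce and Impact), among 19 maternal and 23 paternal members measured. The 3 that fell with Smc3 depletion are among the 4 that fell with Wapal depletion, and all 4 are annotated as paternally expressed. The median log2 fold change was 0.18 over maternal and 0.01 over paternal members with Smc3 depletion, and 0.03 and 0.04 with Wapal depletion. These are counts of annotations and were not tested, and imprinting of several members is known only from particular tissues. Of the 11 dim members, all but Kcnq1 and Zim1 are annotated as paternally expressed, so allele and brightness are not separate in these values.

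Genes that set or protect imprints, and cohesin partners, were counted from a list of 35. Of the 34 measured, 3 rose and 4 fell with Wapal depletion and 6 rose and 3 fell with Smc3 depletion, with medians of -0.002 and 0.10. That is 20.6% and 26.5% of the list, with both targeted genes counted, beside 7.56% and 10.0% of all genes. Only 1 gene of the list stayed under a log2 intensity of 6 on every array. Among genes with a mean log2 intensity of at least 6 the shares were 11.0% and 14.2%. Dnmt3l, the cofactor of de novo DNA methyltransferases in germ cells, rose by 0.84 ± 0.10 with Smc3 depletion (limma adjusted p = 0.00278) and gave 0.14 ± 0.11 with Wapal depletion. Tet2, an oxidase of methylcytosine, fell in both (-0.65 ± 0.10 with Wapal and -0.70 ± 0.09 with Smc3 depletion), and Stag2, a cohesin subunit, and Rlim, a ubiquitin ligase, rose in both, at 0.39 and 0.82 for Stag2 and 0.41 and 1.22 for Rlim. Chosen after its values were seen, Zfp57, which binds the hexamer above, fell by 0.55 ± 0.11 with Smc3 depletion (adjusted p = 0.0191) and gave -0.30 ± 0.11 with Wapal depletion (adjusted p = 0.144). Ctcf gave -0.07 with Wapal and -0.09 with Smc3 depletion, neither past the threshold, and was likewise chosen after its values were seen.

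From a second list of 42 further genes catalogued as imprinted in some tissue or placed near such genes, 39 were measured. With Wapal depletion 4 rose and 3 fell, and with Smc3 depletion 6 rose and 4 fell, with medians of 0.04 and 0.03. That is 17.9% and 25.6% of the list, beside 7.56% and 10.0% of all genes. Mapt, which encodes the microtubule protein tau, fell in both (-1.36 ± 0.14 with Wapal, limma adjusted p = 0.00469, and -1.30 ± 0.12 with Smc3 depletion, adjusted p = 0.000858). Ampd3, an AMP deaminase, also fell in both, at -0.80 ± 0.13 and -0.54 ± 0.13. Atp10a, a phospholipid flippase and dim, rose in both, at 0.64 ± 0.15 and 0.83 ± 0.14, and Tsix, the antisense partner of Xist and also dim, fell by 0.83 ± 0.16 with Wapal depletion (adjusted p = 0.0247).

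Markers of the culture moved beside these results. Of 14 pluripotency markers, 2 rose and 6 fell with Wapal depletion and 1 rose and 7 fell with Smc3 depletion. That is 57.1% of the list in each, beside 7.56% and 10.0% of all genes. Of genes with a mean log2 intensity of at least 6, 11.0% and 14.2% passed. The summed intensity of the pluripotency markers ranged over 54555 to 65470 with Wapal shRNAs and 50474 to 55939 with Smc3 shRNAs. Under Empty Vector it was 63131 to 67329. The summed intensity of 12 fibroblast and feeder markers ranged over 3045 to 3650 with Wapal shRNAs and 4747 to 6426 with Smc3 shRNAs, against 3964 to 4641 under Empty Vector, while their defining collagens Col1a1, Col1a2 and Col3a1 were dim. Of those 12, 1 rose and 3 fell with Wapal depletion and 2 rose and 1 fell with Smc3 depletion. With Wapal depletion 2 of 11 trophectoderm markers rose, and 2 of 12 endoderm and 2 of 9 neural markers fell. With Smc3 depletion 1 trophectoderm marker fell, 1 of 9 mesoderm markers rose, and 1 neural marker rose and 2 fell. The part of any of these in the changes of imprinted genes was not tested.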

How the data were processed

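RNA of 10 ESC samples was hybridised to 10 arrays. The deposited values are linear probe-set intensities that the authors made with RMA, which corrects background, scales arrays to one distribution and summarises probes. Array medians lay between 38.7 and 39.7, and the number of arrays limits the precision. Intensities were taken to log2 with no offset, 64 Affymetrix controls were dropped, and the other 45037 probe sets went into a two-sided test by limma 3.58.1 in R 4.3.3 (lmFit, eBayes, 1 mean per group) with Benjamini-Hochberg adjustment over all of them and a threshold of 0.05. Each depletion was the mean of its 2 shRNA groups minus Empty Vector on 6 arrays, and the depletions were compared on all 10. Dim means a mean log2 intensity under 6. The platform annotation gave 34945 probe sets 1 gene symbol, 932 several and 9160 none.

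Genes were named where they passed in 1 of the 3 main comparisons, together with a set of well-known imprinted genes whether or not they passed, and at most 8 from 2 further lists by size of change. Members and lists were chosen with earlier results of these data known. Groups follow the submitters' labels, which call the replicates biological. A supplementary table of the study swaps the names of 2 arrays, replicate 2 of Wapal shRNA1 and replicate 1 of Wapal shRNA2, which bears on the comparison of these shRNAs. By the submitters' labels the Wapl intensities of each Wapal shRNA lie close together (929 and 1005 under Wapal shRNA1, 235 and 217 under Wapal shRNA2). Nothing further says how the replicates were cultured. In the main fits the p-values measure the spread between replicates within a group. The spread between the 2 shRNAs to a gene does not enter them. Alternatives were quantile normalization, an offset of 16, leaving out dim probe sets, other arrays in the fit, the side of the array split, a replicate block, the mean of a gene's probe sets, the methods' t-test and leaving out each array. The fit was tested on simulated data.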

Additional observations from a re-analysis of the deposited data

Results flagged for a closer look

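The shRNAs to one target differed from each other for 5 imprinted genes on their chosen probe sets. Other probe sets of Kcnq1ot1, Meg3, Rian and Ppp1r9a passed between the Smc3 shRNAs. Between Wapal shRNA2 and Wapal shRNA1, Cdkn1c differed by 0.916 on the log2 scale (limma adjusted p = 0.0217; 1.24 above Empty Vector under shRNA2 and 0.32 above it under shRNA1). Impact differed by -1.41 between them (adjusted p = 0.0049; -0.91 under shRNA2 and 0.50 under shRNA1).

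Between Smc3 shRNA1 and Smc3 shRNA2, Gnas differed by 0.637 (limma adjusted p = 0.0128; 0.91 under shRNA1 and 0.27 under shRNA2). Magel2 differed by -0.797 (adjusted p = 0.00969; -0.39 and 0.41), and H13 by -0.738 (adjusted p = 0.00778; -0.04 and 0.70). The Empty Vector replicates (2 minus 1), which lie on opposite sides of the array split, differed by 0.17 for Cdkn1c, -0.03 for Impact, 0.22 for Gnas, -0.32 for Magel2 and -0.25 for H13. Leaving out any 1 of the 4 arrays of the shRNAs compared ended each call, with adjusted p up to 0.22, except that H13 still passed without Smc3 shRNA1 replicate 2. On the mean of all probe sets of a gene, Gnas (adjusted p = 0.465) and H13 (adjusted p = 0.447) did not pass between the Smc3 shRNAs. The part of the split in these differences was not tested.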

How the results depend on the processing

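Members were counted over all those measured, with any newly past the threshold included, so these are not counts of the original calls kept. With Wapal depletion 5 members passed, and between 3 and 7 when 1 array was left out. The count was 3 without Empty Vector replicate 1 or without Wapal shRNA2 replicate 2, and 8 in a fit of all 10 arrays. With Smc3 depletion 12 passed, and between 6 and 11 when 1 array was left out. The count was 7 without Smc3 shRNA1 replicate 1 or Smc3 shRNA2 replicate 1, and 6 without Smc3 shRNA2 replicate 2. Between the depletions 12 passed, and between 10 and 15 when 1 array was left out. Between the Wapal shRNAs 2 passed, 0 to 4 with 1 array left out, 4 in a fit of all 10 arrays and 4 with dim probe sets left out. Between the Smc3 shRNAs 3 passed, 0 to 6 with 1 array left out and 5 with an offset of 16. After adjustment the methods' t-test called 0 members in the Wapal, Smc3 and both shRNA comparisons and 2 between the depletions. At an unadjusted p under 0.05 it called 5, 14, 6, 13 and 10 members (Wapal, Smc3, Wapal shRNAs, Smc3 shRNAs, between depletions). Of all 45037 probe sets it called 7056, 5485, 6096, 8283 and 8845 at that unadjusted limit, in the same order. After adjustment it called 3, 0, 0, 0 and 1116 of them. In the depletion comparisons this t-test takes the 2 shRNAs to a gene as 1 group, so the spread between shRNAs enters it. The part of this in the differences, and their other causes, were not tested. For 26 named members, 718 values under alternatives gave 639 on the same side of the threshold, 59 no longer past it, 20 newly past it and 0 called values of the opposite sign.

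With the replicate number as a block, 6 members passed with Wapal depletion, 12 with Smc3 depletion, 11 between the depletions, 2 between the Wapal shRNAs and 3 between the Smc3 shRNAs. Deviations of same-numbered arrays correlated at -0.156 to 0.0569 over 10 pairs of groups, so no strong deviation by replicate number was seen. Shared handling that does not follow the replicate number cannot be seen this way. With 2 arrays a group, and 11 of 42 members dim, small changes could be missed.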
